A study of Mus musculus with 8 samples.

Results

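The insulin-like growth factor (IGF) axis and its oncofetal RNA-binding proteins were described here by 10 genes out of 39179 in the count table. They were taken by name and comprised the ligand genes Igf1 and Igf2, the imprinted RNA gene H19, the receptor genes Igf1r and Igf2r, the RNA-binding protein genes Igf2bp2 and Igf2bp3, and the binding protein genes Igfbp2, Igfbp5 and Igfbp7. All 10 were in the table and all 10 passed the filter on low counts, among 18345 genes that did. H19 and Igfbp2 reached the filter's level of 0.478 CPM (counts scaled to library size) in 2 of 3 wild-type libraries and in all 5 adenomas. The other 8 reached it in every library.

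RNA was sequenced from whole tissue of 3 wild-type and 5 adenoma samples of mouse small intestine, all on an inbred C57BL/6J background and all exposed to tamoxifen. Wild-type mice carried VilCreER, a tamoxifen-activated Cre recombinase under the villin promoter, which is active in intestinal epithelium. Adenoma samples were small intestinal adenomas, benign epithelial tumours, that arose in aged mice with VilCreER and 1 floxed allele of Apc beside 1 normal allele (VilCreER+ APCfl/+). Recombination is thus directed to epithelium, so tumour tissue also holds cells without recombination. Ages are not in the labels, nor whether each sample is from its own mouse, and the p-values reflect the spread between these samples alone.

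IGF1 and IGF2 are secreted growth factors that signal through the IGF1 receptor, a tyrosine kinase, while the IGF2 receptor binds IGF2 at the cell surface and takes it to the lysosome. IGF-binding proteins hold the ligands in the extracellular space, and proteases that cut them release the ligand. IGF2BP proteins bind mRNA, including that of Igf2, and are made mainly before birth and in tumours. Igf2 and H19 are oppositely imprinted neighbours that share enhancers and an imprinting control region. In the gut, IGF ligands come largely from stromal cells and act on the crypt epithelium.

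The libraries held 18040301 to 28343915 counts. Apc, the floxed gene, was at 191 to 211 CPM in wild type and 132 to 159 CPM in adenoma, over the whole gene and without showing recombination. The epithelial marker genes Vil1 and Cdx2 were present in every library, at no less than 355 and 31.1 CPM. Adenoma 2 stood apart, with 246 CPM of the hindgut gene Hoxb13 against at most 0.894 CPM elsewhere, and with 0.470 CPM of Gata4, a gene of the upper small intestine, against 68.4 to 101 CPM. All wild-type libraries and adenoma 1 had the male pattern of Xist and Y-linked genes and adenomas 2 to 5 the female one, so sex and group cannot be told apart beyond adenoma 1. The pancreatic lipase gene Pnlip stood out in wild type 1 and adenoma 5, at 190 and 63.5 CPM, while the other libraries had no more than 0.798 CPM.

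H19 and Igfbp2 had the largest increases among the 10 genes, and the sequences tied to them are shown first. The H19 gene holds the hairpin of miR-675, whose mature forms were not measured by these libraries and whose own entry in the table was at 0 counts throughout. The lines below give both mature forms 5′ to 3′ from RefSeq (GRCm38.p6, minus strand, chr7:142577112-142577133 and chr7:142577078-142577099), with the seed, bases 2 to 8, in capitals. The forms have different seeds.
mmu-miR-675-5p: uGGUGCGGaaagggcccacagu
mmu-miR-675-3p: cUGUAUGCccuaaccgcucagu

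Igfbp2 and Igfbp5 lie beside each other on chromosome 1 on opposite strands, with 5457 bases between their downstream ends. Their starts, where the upstream sequences lie, are 50.4 kb apart. Both genes were higher in adenoma, and their upstream sequences are printed for that reason, from RefSeq (GRCm38.p6). The Igfbp2 stretch is chr1:72824230-72824479 on the plus strand and the Igfbp5 stretch chr1:72874885-72875115 on the minus strand, where bases within the annotated exon were left off.
Igfbp2: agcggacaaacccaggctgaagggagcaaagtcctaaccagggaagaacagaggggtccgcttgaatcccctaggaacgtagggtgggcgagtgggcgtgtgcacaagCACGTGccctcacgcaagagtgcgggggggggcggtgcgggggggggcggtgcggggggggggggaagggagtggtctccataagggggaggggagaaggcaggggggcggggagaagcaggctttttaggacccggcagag
Igfbp5: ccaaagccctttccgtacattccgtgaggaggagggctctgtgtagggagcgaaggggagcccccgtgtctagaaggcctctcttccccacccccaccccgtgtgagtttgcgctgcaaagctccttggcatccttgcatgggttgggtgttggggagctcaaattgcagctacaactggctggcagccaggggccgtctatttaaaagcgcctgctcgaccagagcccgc

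Capitals in the Igfbp2 sequence mark a CACGTG E-box, which 6.02% of all 32851 RefSeq promoter windows hold within 250 bases upstream. Of the 10 members, 9 had a window in that set, and H19 had none. Among these 9, the E-box was also in the window of Igf2bp3, which held 1, and that of Igf2r, which held 2. Both strands were searched for it and for the TCF/LEF core words, which are CTTTG followed by any pair of A and T letters. The TATA box (TATAAA) and the AP-1 site (TGACTCA) were searched for as well. A second Igfbp2 window, chr1:72825137-72825386, held 1 AP-1 site and no E-box. No other member window held an AP-1 site, and no member window held a TATA box. Among the 9 members with a window, the core words of TCF/LEF, the factors through which beta-catenin acts, were in that of Igf1 alone. It held 2 of them. They were in 14.8% of all windows.

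Of the 10 genes, 5 rose and 3 fell in adenoma, while 2 did not pass the test, which was edgeR's quasi-likelihood test at a Benjamini-Hochberg adjusted p below 0.05. Over all genes tested, 30.3% were called higher and 27.8% lower, or 58.1% in either direction, so 8 calls of 10 are to be read against a background in which most genes were called. The groups did not overlap for 7 of the 10 genes, 5 higher and 2 lower in adenoma, against 56.9% of all genes tested, 29.3% higher and 27.6% lower. The median log2 fold change was 0.96 for the 10 genes and 0.04 for all genes. When the summed counts of 12 fibroblast markers were set equal in every library, 4 of the 10 were higher and 4 lower. Under that scaling 1192 of all 18345 genes were called higher and 10987 lower. The median of all genes moved to -0.78 and that of the members to 0.12.

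**Figure D1:**
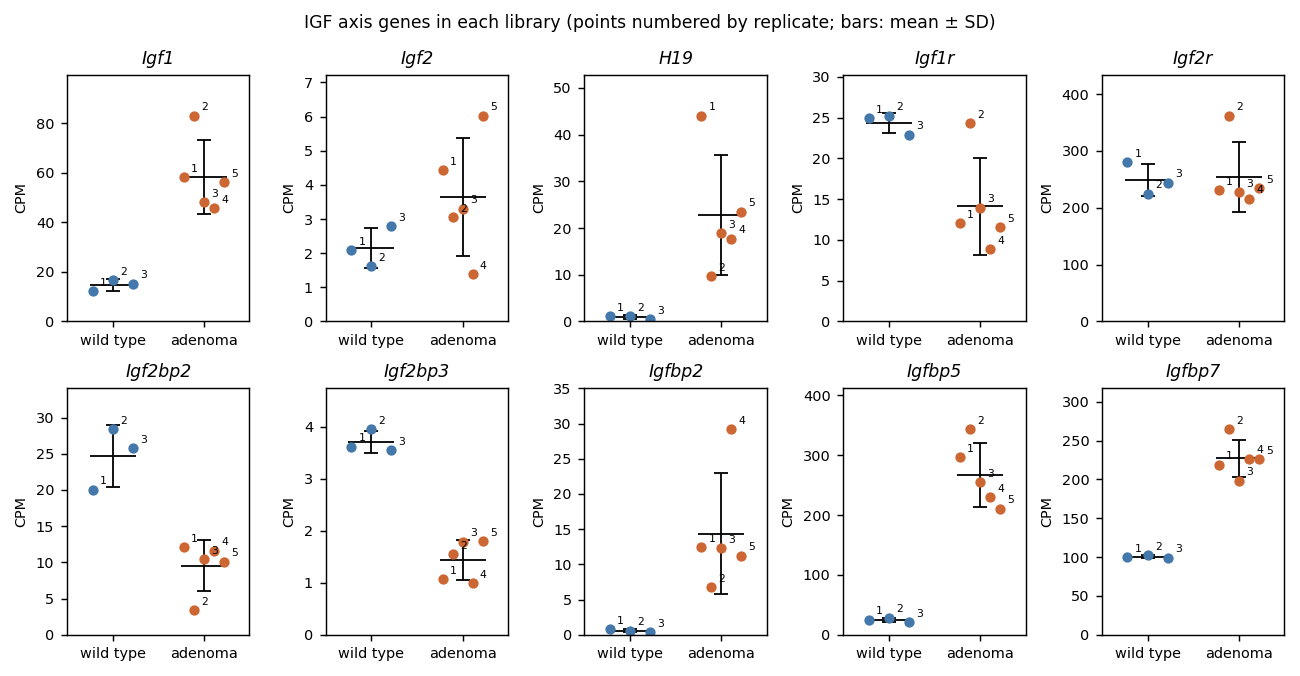
CPM (vertical axes, linear from 0) of each of the 10 genes in the 3 wild-type (blue) and 5 adenoma (orange) libraries, numbered by replicate, with mean ± SD as bars. Igf1, H19, Igfbp2, Igfbp5 and Igfbp7 lie higher in each adenoma than in any wild-type library, Igf2bp2 and Igf2bp3 lie lower, and Igf2, Igf1r and Igf2r overlap.

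The ligand gene Igf1 (ENSMUSG00000020053, GRCm38 chromosome 10, 87858265 to 87937042, plus strand) rose 3.96-fold. It stood at 12.22, 16.72 and 15.22 CPM in wild type 1, 2 and 3 and at 58.1, 83.0, 48.1, 45.7 and 56.2 CPM in adenomas 1 to 5. Each adenoma lay above each wild-type library, and adenoma 2 was the highest. Its log2 fold change was 1.98 ± 0.22 (SE; edgeR adjusted p = 0.000145), and it passed the test under all 21 alternatives. The lowest log2 fold change was 1.15, with fibroblast scaling (edgeR adjusted p = 0.000161). The highest adjusted p was 0.00599 (edgeR), at 1.85, when the summed counts of 10 epithelial markers were set equal. Adenoma 1, which shares the male pattern with wild type, was at 58.1 CPM. The antisense gene Igf1os, which overlaps Igf1, did not exceed 6 counts in any library.

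Igf1 also rose relative to markers of the cells known to make it. It came to 0.763% ± 0.0240 of the summed fibroblast markers in wild type (SD, n = 3) and 1.69% ± 0.266 in adenoma (n = 5). Relative to 10 macrophage markers it came to 2.56% ± 0.600 and 16.5% ± 1.67. The summed fibroblast markers ran from 1655 to 2127 CPM in wild type and 2978 to 4133 CPM in adenoma, led by Col3a1 and Col1a2, with 7 of 12 markers higher and 2 lower and none at 0. The summed macrophage markers ran from 529 to 623 CPM and from 289 to 494 CPM, with 0 of 10 higher and 2 lower and none at 0. Most of that drop was in Mertk, which fell from 182 to 281 CPM to 26.01 to 47.1 CPM, while C1qa was at 59.5 to 67.5 and 50.1 to 88.6 CPM. In bulk tissue, fewer cells of a type and less RNA per cell cannot be told apart, and the part of cell makeup in the rise of Igf1 was not tested beyond these values.

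Igf2 (ENSMUSG00000048583, chromosome 7, 142650766 to 142666816, minus strand), the fetal growth factor gene, did not pass the test. It had 29 to 51 counts in wild type, or 2.09, 1.62 and 2.78 CPM, and 4.43, 3.05, 3.31, 1.38 and 6.03 CPM in adenomas 1 to 5. Adenoma 4 lay below all wild-type libraries and the other 4 adenomas above them. Adenoma over wild type gave a log2 fold change of 0.75 ± 0.43, with a 95% interval of -0.23 to 1.73 (edgeR adjusted p = 0.162). Without adenoma 4 the call was made at 0.95 (adjusted p = 0.0347). Per kb of exon, Igf1 stood above Igf2 in every library, by a ratio of 3.16 to 5.98 in wild type and 5.39 to 19.1 in adenoma.

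H19 (ENSMUSG00000000031, chromosome 7, 142575529 to 142578143, minus strand), a long non-coding RNA made from the maternal allele, rose from near the filter's level. It stood at 1.17, 1.17 and 0.437 CPM in wild type, from 23, 21 and 8 counts. In adenomas 1 to 5 it stood at 44.1, 9.72, 18.9, 17.7 and 23.5 CPM, highest in adenoma 1 and lowest in adenoma 2, with no overlap. On the log2 scale the fold change was 4.61 ± 0.61 (edgeR adjusted p = 0.000473) and ran from 3.84 to 5.56 over the 21 alternatives, with an adjusted p of at most 0.00825.

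H19 and Igf2 therefore differed in how far they moved, although they lie 72622 bases apart. There were 0.157 to 0.724 reads of H19 for each of Igf2 in the wild-type libraries and 3.19 to 12.8 in the adenomas. Over all genes tested, 30.3% were called higher and 27.8% lower. Within 500 kb of the start of H19, 17 genes were tested, of which 7, H19 among them, were called higher and 1 lower. Of these, Cd81 and Tssc4, at the far side of Igf2, lost their calls with epithelial scaling (adjusted p = 0.0925 and 0.151) and with fibroblast scaling (adjusted p = 0.772 and 0.661), as did Tnni2 (adjusted p = 0.0559 and 0.144). Syt8, of the synaptotagmin family, was 143.3 kb away and rose from 0.429 ± 0.162 to 15.8 ± 1.92 CPM, by 5.18 ± 0.25 on the log2 scale. Of the genes that lie nearer on that side, Tnni2 was called higher at 1.71 and Prr33 lower at -1.28. Mrpl23 and Lsp1 were at 0.07 and 0.06 on that scale and did not pass the test, and both took either sign under the alternatives. Without adenoma 2, Lsp1 was called lower at -0.35 (adjusted p = 0.0428). On the other side of Igf2, the stem cell factor gene Ascl2 rose by 1.44 ± 0.20 on the log2 scale.

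**Figure D2:**
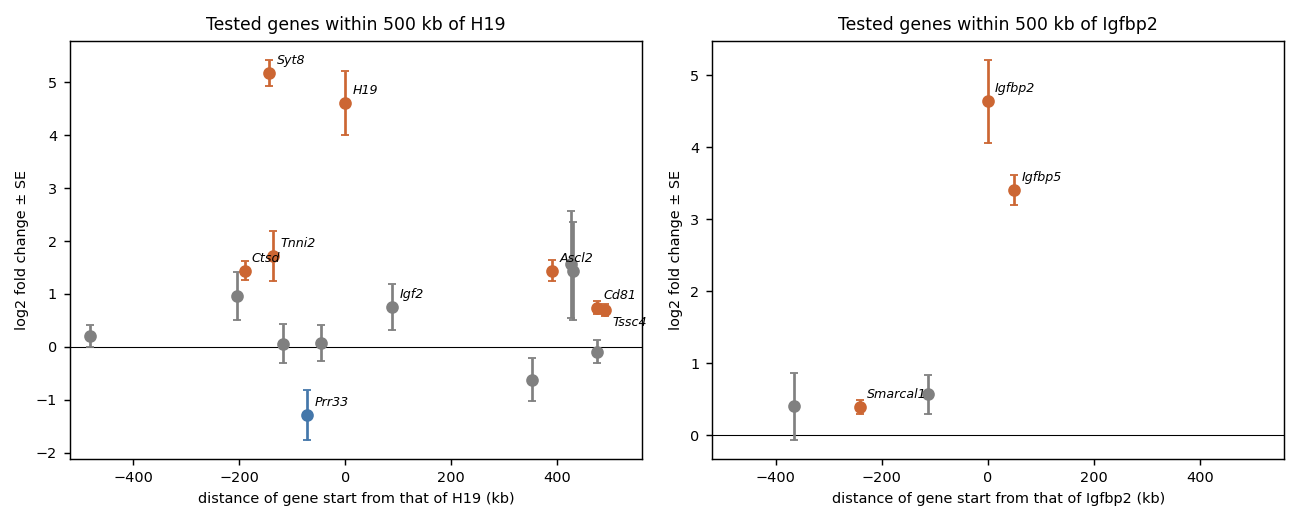
Log2 fold change, adenoma over wild type, ± SE (vertical axes) of each tested gene within 500 kb against the distance of its start from that of H19 (left) or Igfbp2 (right), with genes called higher in orange, lower in blue and others in grey. Syt8 and H19 stand highest on the left with Igf2 in grey at 0.75, and Igfbp2 and Igfbp5 stand well above the other 3 genes on the right.

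The genes whose pattern over the 8 libraries was most like that of H19 were the alpha-globin genes Hba-a2 and Hba-a1, with root mean square differences of 0.307 and 0.368 in centred log2 CPM. Hba-a1 was at 0.709 to 2.17 CPM in wild type and at 41.9, 17.8, 18.1, 18.6 and 37.7 CPM in adenomas 1 to 5. These genes are near-identical copies, so their separate counts are uncertain. The beta-globin gene Hbb-bs was at 3.33 to 10.3 CPM in wild type and 81.0 to 218 CPM in adenoma. Globins belong to red blood cells, and the part of blood in the level of H19 was not tested. Glb1l2 came next, at 0.443.

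The signalling receptor gene Igf1r (ENSMUSG00000005533, chromosome 7, 67952827 to 68233668, plus strand) was called lower, but the call was not firm. It was at 24.95, 25.25 and 22.92 CPM in wild type and at 12.03, 24.3, 13.9, 8.86 and 11.5 CPM in adenomas 1 to 5. Adenoma 2 lay within the wild-type range and the other 4 adenomas well below it. Adenoma over wild type came to -0.79 ± 0.28 on the log2 scale (edgeR adjusted p = 0.0411). The call was lost in 14 of 21 alternatives, among them the removal of any 1 library except adenoma 2, with an adjusted p of 0.0630 (without adenoma 4) to 0.104 (without wild type 1). Without adenoma 2 the log2 fold change was -1.08 (adjusted p = 0.000137).

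Igf2r (ENSMUSG00000023830, chromosome 17, 12682406 to 12769664, minus strand), the clearance receptor for IGF2, did not pass the test. It was at 280, 225 and 244 CPM in wild type and 231, 362, 227, 216 and 235 CPM in adenomas 1 to 5, with adenoma 2 alone above the wild-type range. Its log2 fold change was 0.03 ± 0.19, with a 95% interval of -0.40 to 0.45 (edgeR adjusted p = 0.912). The sign turned under 8 of 21 alternatives, and with fibroblast scaling it was called lower at -0.84. Reads of Airn, the antisense RNA that overlaps Igf2r, cannot be told apart by strand, but Airn had at most 12.9 CPM. Per kb of exon Igf2r exceeded Igf1r by a ratio of 16.1 to 20.3 in wild type and 26.8 to 43.9 in adenoma.

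All 3 binding protein genes of the set rose. Igfbp5 (ENSMUSG00000026185, chromosome 1, 72857932 to 72874884, minus strand), whose protein binds IGFs and the extracellular matrix, was at 25.3, 28.5 and 21.4 CPM in wild type. It was at 297, 344, 255, 230 and 210 CPM in adenomas 1 to 5, each far above wild type. Its log2 fold change was 3.41 ± 0.21 (edgeR adjusted p = 1.21e-05), and over the 21 alternatives it ran from 2.58, with fibroblast scaling, to 3.57. Relative to the summed fibroblast markers Igfbp5 came to 1.08% to 1.53% in wild type and 5.57% to 9.97% in adenoma.

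Igfbp2 (ENSMUSG00000039323, chromosome 1, 72824503 to 72852474, plus strand), a binding protein gene with a preference for IGF2 and known from fetal tissue and liver, was scarcely present in wild type. It had 15, 10 and 7 counts there, or 0.764, 0.557 and 0.382 CPM. In adenomas 1 to 5 it was at 12.4, 6.76, 12.3, 29.2 and 11.2 CPM, with adenoma 4 the highest and no overlap. The log2 fold change was 4.64 ± 0.58 (edgeR adjusted p = 0.000311). Of 8 hepatocyte markers 6 were tested, of which 4 were higher in adenoma and 0 lower, against 30.3% and 27.8% of all genes tested. Of these 4, Ahsg had at most 0.167 CPM in wild type, below the filter's level of 0.478 CPM. It was thus tested only through the adenomas, which fixed its direction in advance. Alb was at 0.0557 to 0.600 CPM in wild type and 17.5 to 47.6 CPM in adenoma. Among the others, Serpina1c was at 0 counts in every adenoma, Fgb had at most 1 count in any library, and the summed hepatocyte markers ran from 1095 to 1257 CPM in wild type and from 107 to 825 CPM in adenoma. Cps1, which enterocytes also make, was most of that sum in every library except adenoma 2, where it was at 3.38 CPM and Ttr and Alb, at 51.3 and 47.6 CPM, made up most of it. The part of such cells in the level of Igfbp2 was not tested.

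Igfbp7 (ENSMUSG00000036256, chromosome 5, 77349240 to 77408041, minus strand), a secreted protein with weak IGF binding that is common in vessels, had the highest level per kb of exon of the 10 genes. It was at 100, 103 and 99.1 CPM in wild type, within 1.74 CPM SD, and at 219, 265, 198, 227 and 226 CPM in adenomas 1 to 5. Adenoma exceeded wild type by 1.17 ± 0.11 on the log2 scale (edgeR adjusted p = 7.34e-05). Summed endothelial markers were at 226 to 267 CPM in wild type and 235 to 348 CPM in adenoma, with 5 of 10 higher and 0 lower and none at 0. Igfbp7 was 41.2% ± 3.69 of that sum in wild type (SD, n = 3) and 75.8% ± 21.1 in adenoma (n = 5). With fibroblast scaling the call was lost, at 0.34 (adjusted p = 0.121). Igfbp7 overlaps Polr2b on the other strand, which was at 68.5 to 99.2 CPM.

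The other binding protein genes moved in the same direction where they were called. Of 12 further binding proteins, proteases and protease inhibitors, 10 were higher and 0 lower, against 30.3% and 27.8% of all genes tested. Of these 10, Igfbp1, Igfbpl1 and Adam28 reached the filter's level in 0 of 3 wild-type libraries. They were thus tested only through the adenomas, which fixed their direction in advance. Igfbpl1 lost its call with epithelial and fibroblast scaling and the sex covariate (adjusted p = 0.0868, 0.0877 and 0.282). It also lost it without each wild-type library in turn (adjusted p = 0.0540 to 0.0834). With fibroblast scaling 7 of the 12 were higher and 1 lower, against 1192 and 10987 of all 18345 genes. The median log2 fold change of the 12 was 1.97, also with Igfbp1 at its bound, against 0.04 over all genes. Igfbp4, whose protein holds IGFs until it is cut by PAPP-A, rose from 51.0 ± 8.37 to 407 ± 56.1 CPM. Igfbp3, the main carrier in blood, rose from 57.9 ± 3.43 to 100.4 ± 11.5 CPM, or by 0.79 ± 0.11 (log2). Its call was lost with epithelial scaling (adjusted p = 0.112), and with fibroblast scaling its log2 fold change was -0.05. Igfbp1, the neighbour of Igfbp3 at a distance of 3539 bases and known as a liver gene, had 0 counts in wild type and 1.08 to 10.3 CPM in the adenomas. Taking 3 counts for the whole wild-type group as the floor, it was at least 109-fold higher. Igfbp6 did not pass the test, with a log2 fold change of -0.42 ± 0.57.

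The proteins that cut binding proteins, and those that hold these proteases in check, were called higher but for Pappa. The calls of Pappa2 and Adam12 were lost with the sex covariate (adjusted p = 0.0581 and 0.0626), and that of Adam12 also with epithelial and fibroblast scaling (adjusted p = 0.0535 and 0.0703). Htra1, a secreted serine protease that cuts IGFBP5, rose from 16.8 ± 2.56 to 150 ± 65.6 CPM (log2 fold change 3.16 ± 0.35). The stanniocalcin genes Stc1 and Stc2, inhibitors of PAPP-A, rose by 4.22 ± 0.36 and 1.61 ± 0.17 on the log2 scale. Pappa itself, which encodes PAPP-A, was at 0.93 ± 0.36 (edgeR adjusted p = 0.0511). It was called higher in 8 of 21 alternatives, among them without adenoma 2 at 0.59 (adjusted p = 0.0173), without adenoma 3 at 1.02 (adjusted p = 0.0493) and without adenoma 4 at 1.06 (adjusted p = 0.0335).

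**Figure D3:**
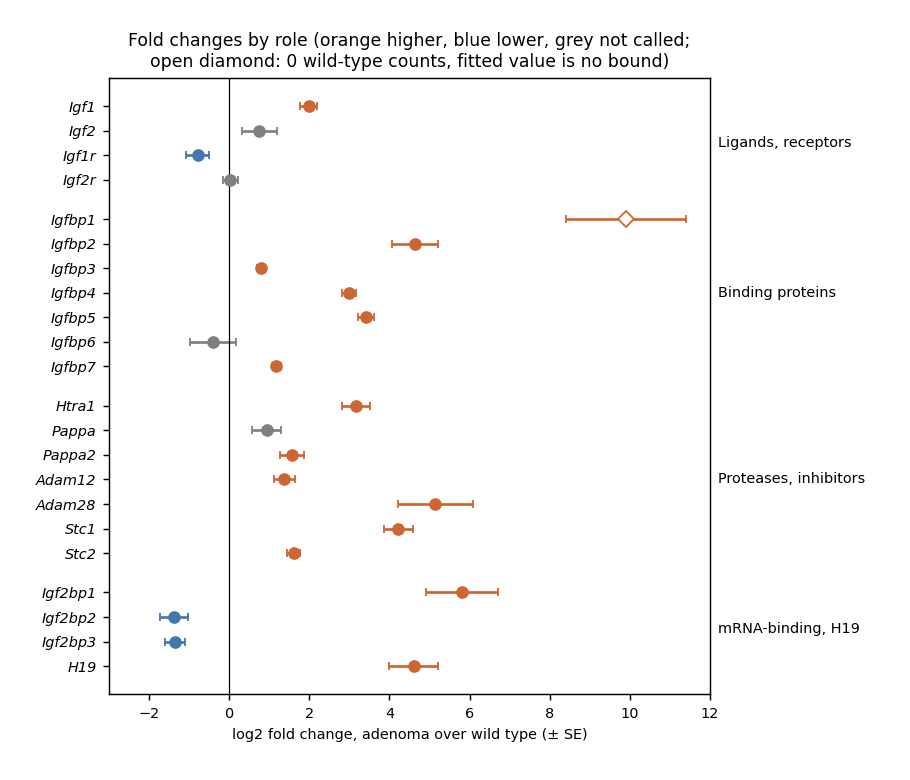
Log2 fold change, adenoma over wild type, ± SE (horizontal axis) for genes of the IGF axis grouped by role, with genes called higher in orange, lower in blue and others in grey. The open diamond of Igfbp1 has 0 wild-type counts, so its fitted value is no bound, and Igfbp6 is the 1 of the genes Igfbp1 to Igfbp7 below 0.

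Summed over Igfbp1 to Igfbp7, the level per kb of exon was 120 ± 1.43 CPM in wild type (SD, n = 3) and 370 ± 27.5 CPM in adenoma (n = 5). Igfbp7 made up 69.1% ± 0.430 of it in wild type and 50.7% ± 2.45 in adenoma. The share of Igfbp4 went from 9.60% ± 1.54 to 24.9% ± 3.09 and that of Igfbp5 from 3.46% ± 0.447 to 12.1% ± 2.22. Igfbp3 fell in share, from 15.4% ± 0.899 to 8.66% ± 0.633, while its own level was higher. No wild-type and adenoma library overlapped in any of these shares.

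**Figure D4:**
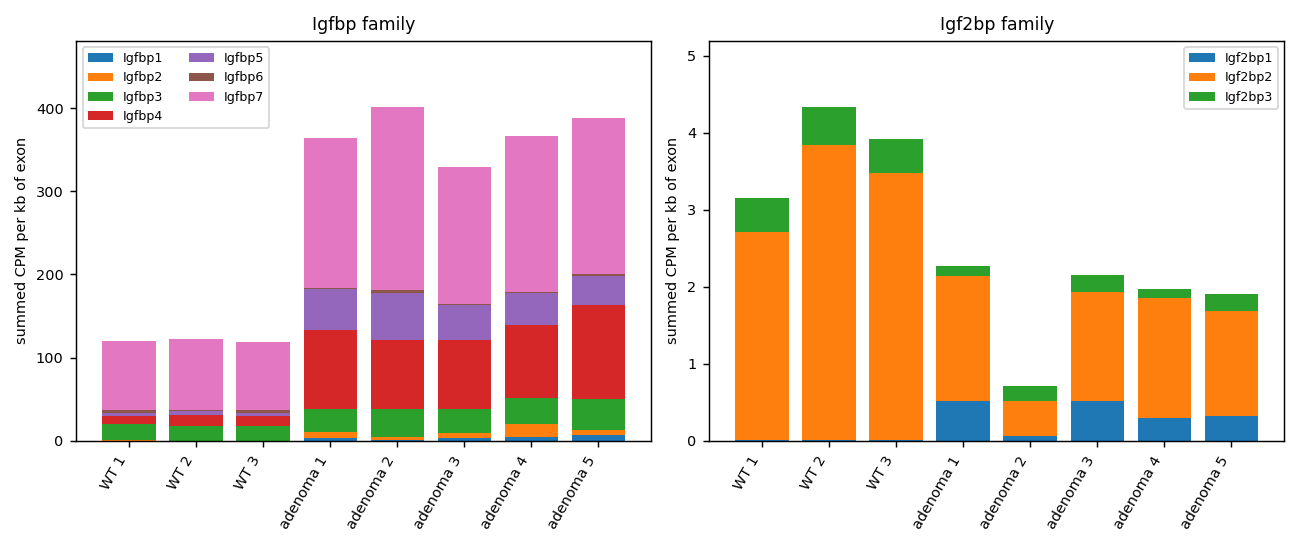
Summed CPM per kb of exon (vertical axes, linear from 0) of the Igfbp family (left) and the Igf2bp family (right) in each library, with colours for the genes. The Igfbp sum is 119 to 122 in wild type and 329 to 401 in adenoma, and the Igf2bp sum is 3.15 to 4.33 in wild type and 0.7097 to 2.28 in adenoma.

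Both oncofetal RNA-binding protein genes of the set were called lower. Igf2bp2 (ENSMUSG00000033581, chromosome 16, 22059009 to 22163299, minus strand), the member of the family that many adult tissues keep, fell from 20.01, 28.4 and 25.7 CPM in wild type to 12.07, 3.38, 10.5, 11.6 and 10.1 CPM in adenomas 1 to 5. The groups did not overlap, and adenoma 2 was the lowest. It fell by 1.38 ± 0.35 on the log2 scale (edgeR adjusted p = 0.00951). A sex covariate ended the call, at -1.03 (adjusted p = 0.225), a fit in which adenoma 1 is the only adenoma with the male pattern. Either block by replicate number also ended it, at -1.66 (adjusted p = 0.064 and 0.0637).

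Igf2bp3 (ENSMUSG00000029814, chromosome 6, 49085223 to 49214957, minus strand), the member best known from tumours, fell as well. It had 65 to 71 counts in wild type, or 3.62, 3.96 and 3.55 CPM, and 1.07, 1.55, 1.79, 0.994 and 1.79 CPM in adenomas 1 to 5, with no overlap. Its log2 fold change was -1.36 ± 0.24 (edgeR adjusted p = 0.00156), and it passed the test in all 20 alternatives in which the gene was tested. Malsu1, which overlaps Igf2bp3 on the other strand, was at 11.9 to 16.4 CPM. The pattern most like that of Igf2bp3 was of Dnah8, at a root mean square difference of 0.109 over the 8 libraries, followed by Ppp1r12b.

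Igf2bp1, the remaining gene of the family and not among the 10, went the other way. It had 1 count in each wild-type library and 4.99, 0.610, 5.05, 2.81 and 3.15 CPM in adenomas 1 to 5. Igf2bp1 thus passed the filter only through the adenomas, which fixed the direction of its test in advance. The ratio of summed counts was 61.9, with a 95% counting interval of 21.0 to 301 that covers counting error only (edgeR adjusted p = 0.000782). Per kb of exon, Igf2bp1 made up 0.133% to 0.167% of the family's level in wild type and 8.88% to 24.2% in adenoma. The family's summed level went from 3.80 ± 0.598 CPM per kb in wild type (SD, n = 3) to 1.81 ± 0.629 in adenoma (n = 5), still mostly Igf2bp2, at 64.4% to 79.2%.

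Of the 10 tested genes in the list of other oncofetal RNA-binding proteins and their let-7 and HMGA partners, 2 were higher, 2 lower and 6 not called. Over all genes tested, 30.3% were higher and 27.8% lower. Of the 2 higher, 1 was Igf2bp1, which reached the filter's level in 0 of 3 wild-type libraries, so its direction was fixed in advance. With fibroblast scaling 1 of the 10 was higher and 7 lower, against 1192 and 10987 of all 18345 genes. Ago2, the slicing Argonaute, fell from 172 ± 20.4 to 63.6 ± 8.05 CPM and Dicer1, the miRNA-processing enzyme, by 0.53 ± 0.09 on the log2 scale. Ybx3, a cold-shock RNA-binding protein, rose by 0.95 ± 0.16. Dicer1 lost its call with epithelial scaling and Ybx3 with fibroblast scaling (adjusted p = 0.0581 and 0.524). Lin28a and Lin28b, which block let-7, were below the filter in these libraries, as was Trim71.

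Downstream of the receptors, 30 genes of the insulin receptor family, adaptors and PI3K-AKT signalling were tested, of which 8 were higher and 15 lower. The shares over all genes tested were 30.3% higher and 27.8% lower. The median log2 fold change of the 30 was -0.27. Irs2, an adaptor of the insulin and IGF1 receptors, fell from 60.1 ± 13.5 to 27.0 ± 5.41 CPM (edgeR adjusted p = 0.000888). Pik3cd, a catalytic subunit best known from leukocytes, fell from 40.1 ± 7.43 to 16.6 ± 1.57 CPM. Foxo1, a transcription factor that AKT keeps out of the nucleus, fell from 20.8 ± 2.20 to 9.57 ± 1.13 CPM. Akt1 was the leading gene of the other direction and rose from 116 ± 15.5 to 229 ± 24.5 CPM, a call lost with fibroblast scaling (adjusted p = 0.455). With 10 epithelial markers set equal in every library, 2 of the 30 were higher and 4 lower, and with fibroblast scaling 1 was higher and 23 lower. Of all 18345 genes, 1841 were higher and 4051 lower with epithelial scaling, and 1192 and 10987 with fibroblast scaling.

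The growth hormone arm, which drives Igf1 in liver and other tissues, was mostly without calls. Of 6 genes tested 1 was higher, 1 lower and 4 not called, against 30.3% higher and 27.8% lower over all genes tested. The receptor gene Ghr was at 0.07 (log2) but was called lower, at -0.77, with fibroblast scaling. Jak2, the kinase of that receptor and of many cytokine receptors, fell from 260 ± 32.5 to 131 ± 27.8 CPM, a call that a sex covariate ended (adjusted p = 0.108). Stat5a rose by 0.57 ± 0.16, with its call lost in 6 alternatives, at -0.28 with fibroblast scaling and at an adjusted p of 0.0522 without wild type 2.

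Other imprinted genes went both ways. Of 21 tested, 5 were higher, 5 lower and 11 not called, against 30.3% higher and 27.8% lower over all genes tested. The median on the log2 scale was -0.03. Without adenoma 2, 5 were higher and 9 lower, against 6184 and 6092 of the 18195 genes tested in that fit. With fibroblast scaling 3 were higher and 12 lower. Of all 18345 genes, 1192 were higher and 10987 lower with fibroblast scaling. Cdkn1c, a growth-restraining inhibitor of cyclin-dependent kinases, rose from 4.63 ± 0.742 to 37.9 ± 8.59 CPM. Gnas, which encodes a G protein subunit, rose from 77.7 ± 3.53 to 155 ± 7.01 CPM and the proteoglycan gene Dcn, also a fibroblast gene, from 132 ± 12.6 to 290.4 ± 39.2 CPM. Both of these calls were lost with fibroblast scaling (adjusted p = 0.460 and 0.259). Nnat fell from 9.10 ± 0.924 to 3.87 ± 0.761 CPM.

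The order of the 10 genes by level per kb of exon changed mainly through H19 and Igfbp2. In wild type the order was led by Igfbp7 at 83.2 ± 1.44 CPM per kb and Igf2r at 26.8 ± 3.02, followed by Igfbp5 at 4.17 ± 0.587 and Igf2bp2 at 3.34 ± 0.580. Igf1 and Igf1r did not differ beyond their spread, at 1.49 ± 0.231 and 1.45 ± 0.0756. Igf2, H19 and Igfbp2 closed the order at 0.378, 0.376 and 0.307, also within their spread. In adenoma Igfbp7 was at 187.7 ± 19.98, Igfbp5 at 44.5 ± 8.92 and Igf2r at 27.3 ± 6.52. H19 at 9.26 ± 5.24, Igfbp2 at 7.78 ± 4.66 and Igf1 at 5.88 ± 1.496 followed within their spread, and Igf2bp3 was last at 0.176 ± 0.0471.

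Among genes of a mean of at least 1 CPM, those nearest to Igf1 in pattern were Ehf, Pgm2l1 and Znrf3, at root mean square differences of 0.102, 0.124 and 0.129 in centred log2 CPM. Like Igf1, Ehf was highest in adenoma 2, at 494 CPM against 283 to 349 CPM in the other adenomas. Capn6 and Tesc were nearest to Igfbp2, at 0.310 and 0.354, and both were highest in adenoma 4, at 17.3 and 47.0 CPM. Tmem150c and Olfml2b were nearest to Igfbp5, at 0.211 and 0.224. These are descriptions over 8 libraries that share a group difference.

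**Figure D5:**
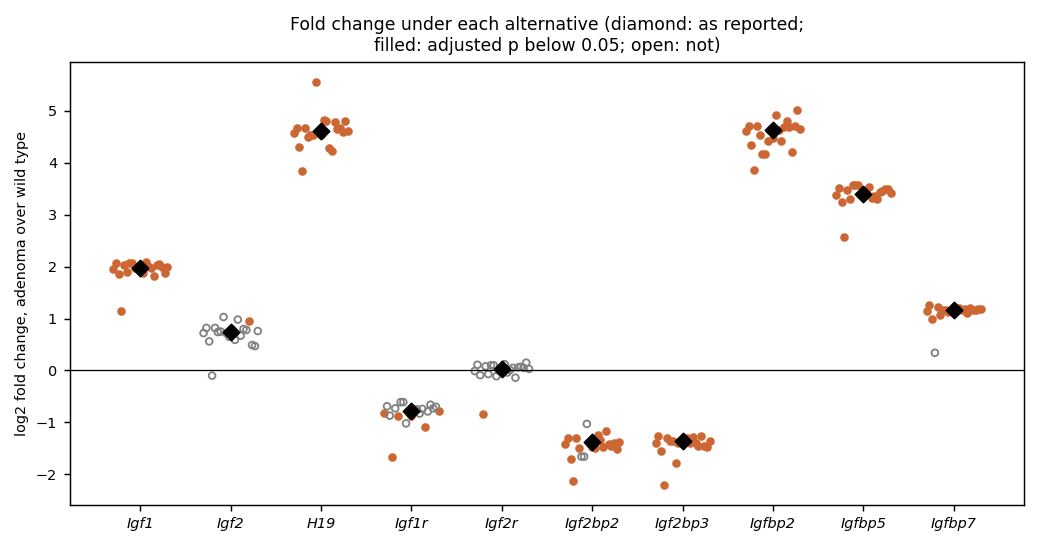
Log2 fold change, adenoma over wild type (vertical axis) of each of the 10 genes as reported (black diamond) and under each alternative (circles, filled where the adjusted p was below 0.05). Igf1, H19, Igfbp2 and Igfbp5 stay filled and above 0 and Igf2bp3 filled and below 0 throughout, while Igf1r is mostly open, Igf2 is filled once above 0 and Igf2r once below it.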

How the data were processed

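RNA of 8 whole-tissue samples was read as paired ends on an Illumina NextSeq from TruSeq RNA v2 libraries, a kit that does not keep strand, per the labels' protocols. The authors deposited raw counts per gene, and FastQC, TopHat2 and HTSeq with build GRCm38 were used per the submitters' processing notes. For versions, annotation release and counting settings, the sources used here give nothing. Symbols and positions came from GENCODE M21 (GRCm38) for 37693 of 39179 identifiers. All 8 columns were assigned by name.

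Counts were fitted with edgeR 4.0.16 in R 4.3.3 (filterByExpr, TMM, robust quasi-likelihood test, Benjamini-Hochberg over 18345 genes). CPM uses TMM library sizes, log2 CPM a prior count of 2, and SE is the log2 fold change divided by the square root of F. In simulated counts for this comparison (17920 genes), 56% of genes changed by a factor of 2 and 90% of those changed by 4 were recovered, with 6.41% of calls false. Only 100 genes were changed by each factor, all above a minimum mean count, while 58.1% of genes were called in the data. The simulated rates therefore need not hold for the data or for genes of low count. Each library counted as 1 replicate. Pairs within a group differed beyond sampling noise (chi-square per degree of freedom 20.1 to 149), which does not show that they came from separate mice.

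The members, gene lists and tests were chosen with earlier results of these data known. Named were all members, the 4 best genes of each list by adjusted p, the first gene of the rarer direction, the leading markers, and the 3 genes most like a member. Other genes, such as Hoxb13, Gata4, the remaining binding protein and globin genes and neighbours, were picked with their values in view. The text leaves out some genes that the rule takes. Alternatives were other scalings, filters and tests (DESeq2 1.42.0, limma-voom of limma 3.58.1), a replicate block, a sex covariate, left-out libraries and left-out ribosomal RNA genes. Intervals of log2 fold changes come from the edgeR fit and include the spread between libraries, while the interval of summed counts and the floor cover counting error only.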

Additional observations from a re-analysis of the deposited data

Results flagged for a closer look

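Within the 5 adenomas, 3 of the 10 genes had 1 library whose distance from its nearest neighbour took up most of the group's range, by Dixon's criterion. Chance meets this criterion in about 1 of 20 groups if values are normally distributed. The share of all genes that meet it was not computed, so 3 of 10 cannot be read as unusual. For Igf2r the library that stood apart was adenoma 2, at 361.9 CPM, with the other adenomas at 215.6 to 234.6 CPM. For Igf2bp2 it was again adenoma 2, at 3.381 CPM, with the others at 10.09 to 12.07 CPM. For Igfbp2 it was adenoma 4, at 29.23 CPM, with the others at 6.761 to 12.40 CPM. Adenoma 2 is also the library with Hoxb13 and almost no Gata4, and the part of its tissue identity in these values was not tested.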

How the results depend on the processing

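The 5 members called higher were called under every alternative except fibroblast scaling, where Igfbp7 was not (adjusted p = 0.121), and Igf2 joined them without adenoma 4. The sign of Igf2r turned with RLE scaling (-0.01), DESeq2 (-0.01), epithelial scaling (-0.09), fibroblast scaling (-0.84, called lower with an adjusted p of 0.00502), a filter of 5 CPM (-0.07), the sex covariate (-0.11), and without wild type 2 (-0.04) or adenoma 2 (-0.14), with 0.12 as its highest value when 1 library was left out, while that of Igf2 turned with fibroblast scaling (-0.10). The members called lower went from 3 to 1 with the sex covariate and with either replicate block (numbers 1 to 3, or all libraries), with Igf2bp3 remaining and Igf2bp2 at -1.66 under both blocks (adjusted p = 0.064 and 0.0637). With 1 library left out, 2 or 3 were lower. Over all genes, 10657 calls became 5892 with epithelial scaling, 5372 with the sex covariate, and 6500 and 6549 with the replicate blocks. The share of calls that were higher went from 52.2% to 31.2% with epithelial scaling and 9.79% with fibroblast scaling, as the median log2 fold change moved from 0.04 to -0.16 and -0.78. Of 89 other pathway genes, 55 were called, or 30 with epithelial scaling and 35 with the sex covariate, and the share higher went from 58.2% to 22.6% with fibroblast scaling. Deviations of same-numbered libraries correlated at -0.018, 0.051 and 0.061, and wild type 1 was nearest to adenoma 5 (0.144). Correlations this weak over so few libraries cannot show whether the replicate numbers pair the libraries. The cause of the changes in calls was not tested. Wild-type levels of H19, Igfbp2 and Igf2 rest on 7 to 51 counts a library, which limits their fold changes.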
